A study of Mus musculus with 4 samples.

Results

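Gene expression was compared between 2 RNA-seq libraries of CT26 cells, a mouse colorectal cancer line derived from BALB/c mice. One library came from cells infected with a lentivirus that carries a short hairpin RNA against green fluorescent protein (lenti-shGFP, the control), and the other from cells infected with a lentivirus whose hairpin targets mouse Aurora-A (lenti-shmaurka-1). The study selected infected cells with puromycin, without giving the dose for each culture, and RNA was taken at 48 h. The genes compared were those with a mean of at least 10 deposited counts over these 2 libraries. The filter left 12753 of the 51905 genes in the files, whether or not the second line of the study, MC38, expressed them. Of these, 11928 also reached a mean of 10 counts in MC38 and 825, or 6.47%, did not, and the latter are called CT26-only genes here. The knockdown rests on 1 hairpin and on 1 library for each condition, so no difference has a replicate behind it and no test between conditions was possible. The study made these libraries to ask how Aurora-A within tumour cells bears on the immune cells around them. On either side of the filter the shares past the thresholds were close. Among the 152 genes with a mean of 10 to 11 counts, 17.8% lay over 1.5-fold and 25.7% under 0.6-fold, and among the 155 genes with a mean of 9 to 10 counts the shares were 21.9% and 23.9%.

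Aurora-A, encoded by Aurka, is a serine/threonine kinase of the centrosome and spindle poles. It accumulates in G2 and mitosis, is activated at the spindle by Tpx2 and before mitotic entry with the help of Bora, and promotes the activation of Plk1 and of the kinase formed by Cdk1 and cyclin B. Its relative Aurora-B, encoded by Aurkb, works at centromeres within the chromosomal passenger complex together with Incenp, survivin (Birc5) and borealin (Cdca8). Most of these genes are transcribed in G2 and mitosis under the MuvB complex with B-MYB and FOXM1, which acts through promoter elements named CHR, whereas genes of DNA replication are transcribed earlier, largely through E2F sites.

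Dividing the deposited counts by the value of 1 fragment gave 23752269 fragments for the shGFP library and 22207768 for the shmaurka-1 library. In the 2 libraries 18392 and 17885 genes held at least 1 fragment. The 10 genes with the most fragments took 4.16% and 4.11% of the fragments, and mitochondrial genes took 1.30% and 1.25%. Fold changes are log2 ratios of the shmaurka-1 library to the shGFP library after TMM scaling, with 1 count added to each. The 95% intervals beside them are exact conditional binomial intervals on whole fragments. They cover counting error only and compare 2 libraries, not 2 conditions. FPKM values are scaled to transcript length, and fragments are not, so the genes of a list with the most fragments need not have the highest level.

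Aurka itself was lower in the library of the targeting hairpin. Its 5724 fragments in shGFP and 1093 in shmaurka-1 put it at -2.27 on the log2 scale (95% interval -2.37 to -2.18), which left 0.207 of the control level. In FPKM the gene stood at 120 in the control and 26.1 in the knockdown library. The gene lies on chromosome 2, from 172356190 to 172370535 on the GRCm38 build, and 3 genes on the other strand overlap its exons, of which Fam210b covers 30.6% of an Aurka transcript. Aurkb, whose product is the closest relative of Aurora-A, stood on the other side of the control. It had 1243 fragments in shGFP and 2073 in shmaurka-1, or 0.86 on the log2 scale (95% interval 0.75 to 0.96). Il16, the cytokine gene the study went on to examine, did not reach the count filter. It was represented by 2 fragments in shGFP and 6 in shmaurka-1, a log2 ratio of 1.34 with a 95% interval of -0.78 to 5.04, so a difference in either direction was not detectable at this depth. Il16, whose locus in the files holds 5 genes, was listed at 0.0275 FPKM in shGFP and 0.413 FPKM in shmaurka-1, a log2 ratio of 3.91, so the size of the ratio depends on the unit.

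The thresholds of the study, above 1.5-fold and below 0.6-fold, were passed by 464 genes upward (3.64% of those compared) and by 422 genes downward (3.31%). The median log2 fold change of all compared genes was -0.01, and 48.3% of them were higher in the shmaurka-1 library. The middle 90% of genes lay between -0.60 and 0.51. The spread narrowed with abundance. Where the interval also had to exclude no change, 285 genes (2.23%) passed upward and 266 (2.09%) downward, and where the whole interval had to lie past the threshold, 91 (0.714%) and 41 (0.321%) passed. Among 2094 genes with a mean of 10 to 50 counts, 12.2% lay above 1.5-fold and 14.3% below 0.6-fold. Among 5282 genes with a mean of at least 1000 counts the 2 sides were unequal, with 64 genes (1.21%) above 1.5-fold and 13 (0.246%) below 0.6-fold. The plot of fold change against abundance shows this narrowing. Predicted or clone names made up 30.4% of the 886 genes past a threshold. The highest and lowest ratios belonged to 2 of these, singled out after their values were seen. AC154550.1 on chromosome 13 had 1 fragment in shGFP and 175 in shmaurka-1 (log2 fold change 6.91, 95% interval 5.07 to 12.88), and Gm28539 on chromosome 16 had 46 fragments in shGFP and 0 in shmaurka-1, at least 14.1-fold lower against a floor of 3 fragments in that library. In MC38 they had 98 and 262 fragments, and 47 and 0.

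**Figure D1:**
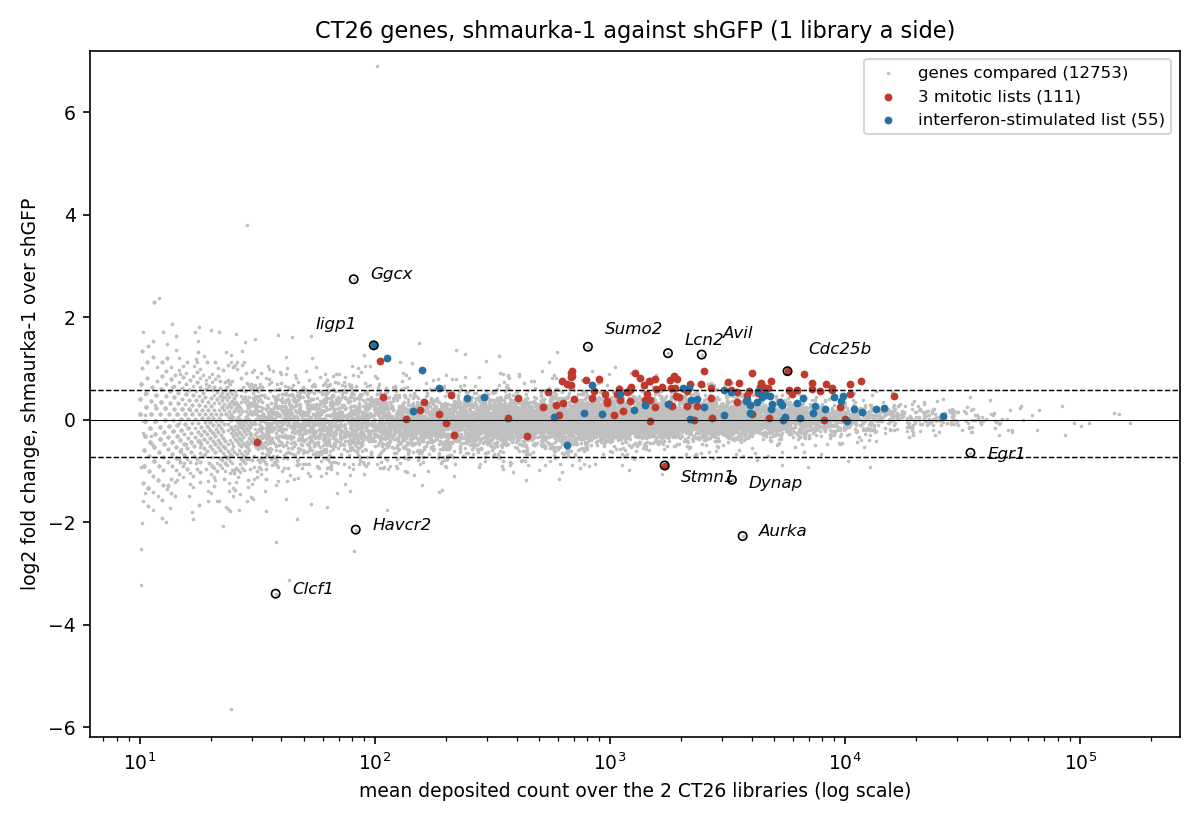
Each point is 1 of the 12753 genes compared, at its mean deposited count over the 2 CT26 libraries (x, log scale) and its log2 fold change, shmaurka-1 over shGFP (y), with dashed lines at 1.5-fold and 0.6-fold. Red points are the 111 measured genes of 3 mitotic lists, which gather above 0 at a median of 0.54, blue points are the 55 measured interferon-stimulated genes with a median of 0.31, and Aurka stands apart at -2.27.

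The genes that stood highest in the shmaurka-1 library after counting error came from several functions. Lcn2, which encodes lipocalin 2, an iron-siderophore-binding acute-phase protein, had 952 fragments in shGFP and 2160 in shmaurka-1 (log2 fold change 1.30, 95% interval 1.19 to 1.41). C3, the central complement component, had 320 and 734 fragments (1.31, 1.12 to 1.51). Both are secreted proteins that inflammatory signals induce. Sumo2, which encodes a small ubiquitin-like modifier, had 408 and 1010 fragments (1.42, 1.26 to 1.59), and it stood at 26.6 FPKM in the control and 71.1 FPKM in the knockdown library. Avil, which encodes the actin-severing protein advillin, had 1343 and 2988 fragments (1.27, 1.18 to 1.37), and its exons overlap Tsfm on the other strand. Cdc25b, the phosphatase that starts the activation of Cdk1, held the most fragments of the 15, with 3631 and 6454 fragments (0.95, 0.89 to 1.01).

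The largest ratio among genes with an established name was that of Ggcx, the gamma-glutamyl carboxylase of vitamin K-dependent proteins, which had 19 and 122 fragments (2.74, 2.10 to 3.58). Mat2a overlaps it on the other strand along 9.99% of a transcript. Ggcx begins at 72414308 on chromosome 6, and Tmem150a and Vamp8, both among the 15 lower genes, lie near it between 72355447 and 72390703. In MC38 Ggcx stood at 1.48, Tmem150a at 1.67 and Vamp8 at -0.31. Whether the positions bear on these ratios was not tested. Iigp1, an interferon-inducible GTPase, had 49 and 125 fragments (1.45, 0.98 to 1.98), and Acox2, a peroxisomal acyl-CoA oxidase, had 24 and 70 (1.62, 0.97 to 2.40). Desi2 with 75 and 197 fragments, Rad9a, a subunit of the 9-1-1 DNA damage clamp, with 131 and 294, and Slit3, a secreted guidance ligand, with 646 and 1210 were also among the 15 higher genes. The 15 were chosen by the interval bound nearest to no change, and the lowest of these bounds was a log2 value of 0.88. A few members of the group are uncertain as measurements. Gapdh, the glycolytic dehydrogenase, had 115 and 275 fragments in CT26 against 5628 and 4862 in MC38. At 95% identity or more, 78 other annotated genes match at least 20% of its transcript. Olfr56 with 20 and 58 fragments sits in a locus of 12 genes, and Spdye4a with 3 and 18 fragments shares 33.0% of its transcript with Spdye4b. The plot of the leading genes by library shows all of them with the lower genes.

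Aside from Aurka, most of the 15 lower genes were of low to moderate abundance. Clcf1, a cytokine of the interleukin 6 family, had 66 fragments in shGFP and 5 in shmaurka-1 (log2 fold change -3.40, 95% interval -5.27 to -2.31). Its locus in the files holds 2 genes, and Gm45928 overlaps it on the same strand along 13.4% of a transcript. It begins at 4214238 on chromosome 19, near the higher gene Rad9a, which ends at 4201603. In MC38 Clcf1 stood at -1.09 and Rad9a at 1.02. Havcr2, which encodes the immune checkpoint receptor TIM-3, had 128 and 26 fragments (-2.15, -2.85 to -1.57). Ccr1, a chemokine receptor, had 257 and 89 (-1.40, -1.78 to -1.06). Sema7a, a membrane-anchored semaphorin, had 35 and 7 fragments (-2.07, -3.62 to -1.01). These 4 genes of cytokine, receptor and guidance signalling, grouped after the 15 were chosen, rested on at most 257 fragments in the control. Their intervals lie below no change by the rule that chose the 15. Read per length, none of them was abundant in the control, with 1.88 FPKM for Clcf1, 2.13 for Havcr2, 7.06 for Ccr1 and 0.411 for Sema7a.

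More abundant genes were among the 15 lower ones as well. Dynap, a membrane protein gene of chromosome 18, had 4299 fragments in shGFP and 1757 in shmaurka-1 (-1.17, -1.25 to -1.09), and it reached 206 FPKM in the control against 91.5 FPKM in the knockdown library. Pim1, a serine/threonine kinase induced by cytokine signals, had 789 and 327 fragments (-1.15, -1.34 to -0.97). Mgst3, a microsomal glutathione transferase, had 262 and 93 (-1.37, -1.73 to -1.03), and Vamp8, a SNARE of endosomes and secretory granules, had 77 and 22 (-1.65, -2.44 to -0.99). Atp13a4 with 74 and 7 fragments, the giant cadherin gene Fat2 with 132 and 20, the steroid reductase gene Akr1c18 with 164 and 44, and Prl, which encodes prolactin, with 91 and 25 completed the better measured part of the group. Tmem150a had 61 and 10 fragments in CT26 but 24 and 77 in MC38, on opposite sides of the controls. Styx, a pseudophosphatase gene, rested on 18 fragments in the control and 1 in the knockdown library, and 32.6% of its transcript is shared with Styx-ps, so its ratio of -3.23 (95% interval -9.43 to -1.39) is uncertain.

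**Figure D2:**
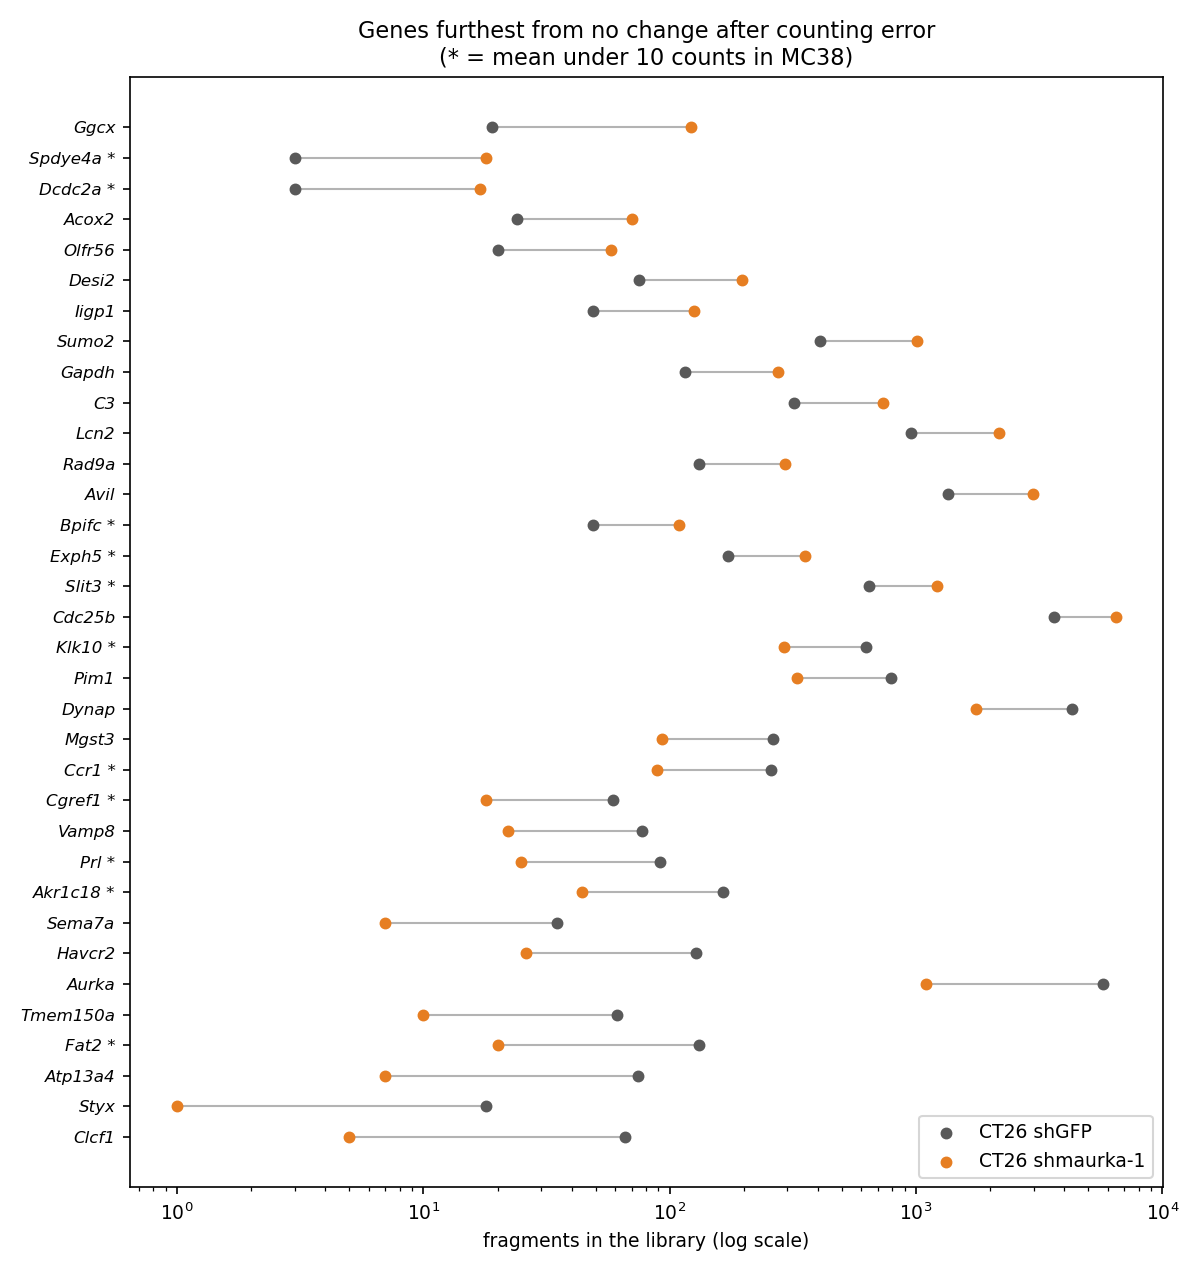
Fragments of each gene in the CT26 shGFP library (grey) and the CT26 shmaurka-1 library (orange) on a log scale, 1 point per library, for the 15 higher and 15 lower genes whose 95% counting interval stays furthest from no change and 5 of the 6 higher and all 6 lower CT26-only genes chosen the same way (starred). Aurka (5724 and 1093), Dynap (4299 and 1757) and Cdc25b (3631 and 6454) hold the most fragments, while Styx, Spdye4a and Dcdc2a rest on 1 to 3 fragments in 1 library.

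Genes were then grouped into 47 lists by function. Their medians, with the number of members higher or lower, are set beside those of all compared genes and carry no test. Over all compared genes the median was -0.01, 48.3% were higher, 3.64% were over 1.5-fold and 3.31% under 0.6-fold. The 95% interval of a list's median is a binomial order-statistic interval over its members. It treats the members as independent, and whether they are was not tested. It describes the spread of members between the libraries compared, not between conditions. The counts of lists by interval are therefore descriptive and are no test of a list. The median was above 0 for 17 lists and below 0 for 30, its interval lay wholly above 0 for 12 lists, and wholly below 0 for 8. The plot of list members shows the order of the lists.

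**Figure D3:**
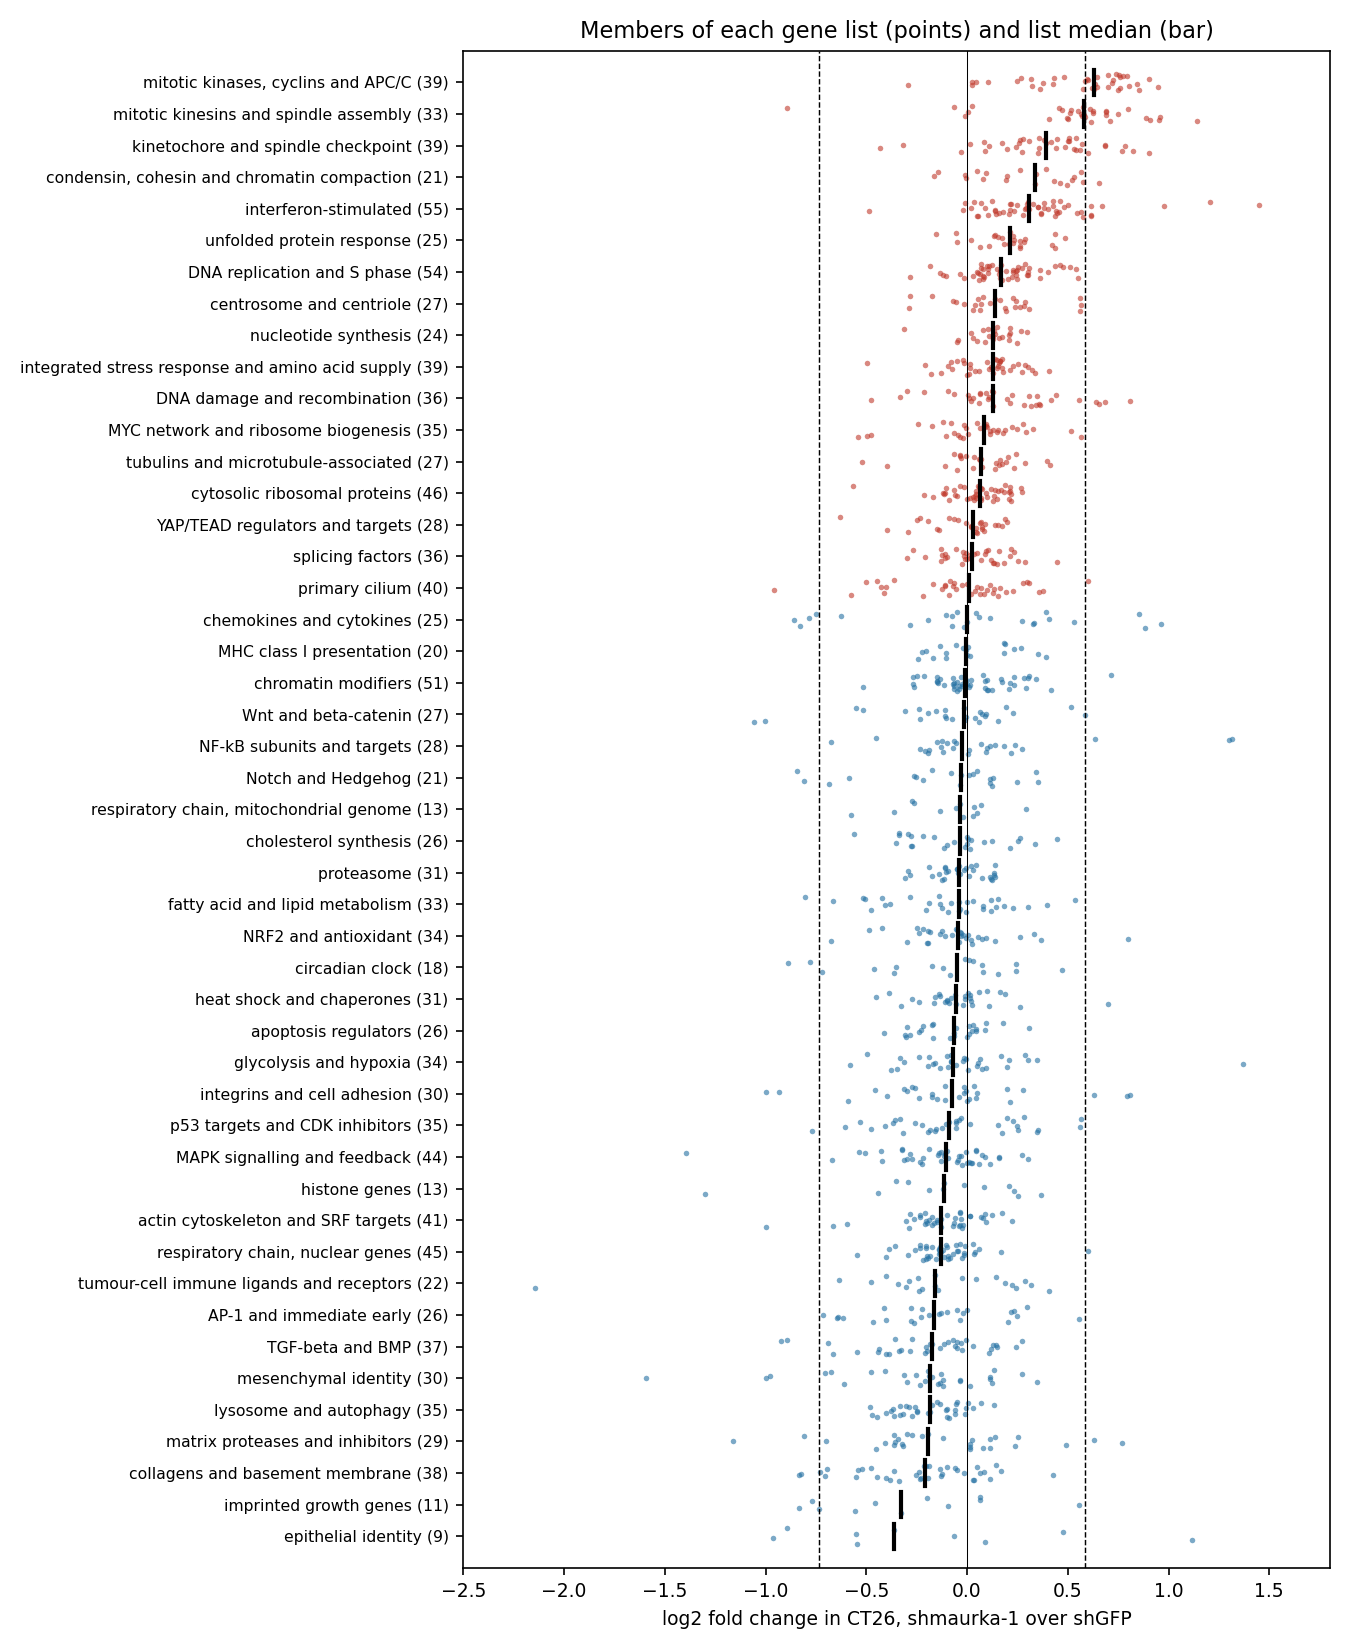
Log2 fold change in CT26 (x) of every measured member (points, red for a list median above 0, blue below) of the 47 gene lists (y, number measured in parentheses), with the list median as a black bar and dashed lines at 1.5-fold and 0.6-fold. The 3 mitotic lists lie highest with medians of 0.63, 0.58 and 0.39, and the collagen list (-0.21) and the lysosome list (-0.18) are among the lowest.

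The mitotic machinery stood higher as a whole in the library with less Aurka. Of 111 measured genes in 3 lists, which do not include Aurka, 104 were higher, 47 were over 1.5-fold against 3.64% of all compared genes, and 1, Stmn1, was under 0.6-fold. The median log2 fold change was 0.54. In bulk RNA, more cells in mitosis and more of these RNAs per cell cannot be told apart. The counting interval lay above no change for 94 of them, against 20.8% of all compared genes, and below it for 3. These 47 genes were 10.1% of the 464 genes over 1.5-fold, and 37 of them were among the 64 such genes with a mean of at least 1000 counts, or 57.8%, which is more than all other functions together among genes with that many counts.

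The list of mitotic kinases, cyclins and the anaphase-promoting complex had the highest median of all, 0.63 (95% interval 0.43 to 0.72), with 38 of 39 measured genes higher and 24 over 1.5-fold. Its summed level was 2487 FPKM in shGFP and 3585 FPKM in shmaurka-1. Beside Cdc25b (0.95) and Aurkb (0.86) stood Fbxo5, which encodes the anaphase-promoting complex inhibitor EMI1, with 442 and 763 fragments (0.90, 0.73 to 1.08). Mki67, the proliferation marker that coats mitotic chromosomes, had 8152 and 12672 fragments (0.75, 0.71 to 0.79). Top2a, the topoisomerase that untangles sister chromatids, had 7487 and 11193 (0.70, 0.66 to 0.74). Genes of the pathway named in the background, chosen with their values known, were on the same side. Ccnb1, which encodes cyclin B1, had 3376 and 5270 fragments (0.76), Plk1 had 3276 and 4675 (0.63), and Cdk1 had 4343 and 5972 (0.58). Bora stood at 0.75 with 437 fragments in the control. The other members of the chromosomal passenger complex stood at 0.64 for Incenp, 0.76 for Birc5 and 0.48 for Cdca8. Nek2, a centrosomal kinase, was the 1 gene of the list below its control level, at -0.29.

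Motor proteins and spindle assembly factors had a median of 0.58 (95% interval 0.51 to 0.69), with 30 of 33 genes higher and 16 over 1.5-fold. Kif22, a chromokinesin that pushes chromosome arms from the poles, had 1592 and 2847 fragments (0.96, 0.87 to 1.05). Kif15, a plus-end motor that can support spindle bipolarity, had 439 and 784 (0.95, 0.78 to 1.13). Kif14, a cytokinesis motor, had 830 and 1438 (0.91, 0.79 to 1.04), and Kif20a, a motor of the central spindle, had 4373 and 7456 (0.89, 0.83 to 0.94), though Cdc23 on the other strand covers 53.8% of a Kif20a transcript. Tpx2, the spindle activator of Aurora-A, was itself higher, with 6577 and 9066 fragments (0.58, 0.53 to 0.63). Anln, a scaffold of the cleavage furrow, held the most fragments of the list, with 12721 and 16250 fragments (0.47). Of the 3 lower genes, the 1 under 0.6-fold was Stmn1, which encodes the microtubule-destabilizing protein stathmin. It had 2087 and 1035 fragments (-0.89, -1.003 to -0.79), and in FPKM 80.5 and 44.3.

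At the kinetochore and spindle checkpoint, 36 of 39 genes were higher with a median of 0.39 (95% interval 0.27 to 0.51), and 7, against 3.64% of all compared genes, were over 1.5-fold. They were led by the checkpoint kinases. Bub1b, which encodes BUBR1, had 2610 and 4505 fragments (0.90, 0.84 to 0.98), and Ttk, which encodes MPS1, had 458 and 749 (0.83, 0.66 to 1.00). The outer kinetochore gene Ndc80 had 614 and 976 fragments (0.79, 0.64 to 0.93), and Cenpa, the histone H3 variant of centromeres, had 1239 and 1948 (0.77, 0.67 to 0.87). The 2 genes of the list with the most fragments differed from one another. Hjurp, the chaperone of Cenpa, had 8107 and 10629 fragments (0.51, 0.47 to 0.55), whereas Zwint had 9290 and 8645 (0.01, -0.03 to 0.06).

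Promoters of these genes were searched because these members were higher together, and windows of 250 bases before to 50 bases after the transcription start were taken from RefSeq on GRCm38.p6, without those of chromosome 18. Of the 12753 compared genes 8903 symbols had a window. The CHR was searched as TTTGAA or TTCGAA, the CCAAT box as CCAAT, E2F sites as TTTGGCGC, TTTCCCGC or TTTCGCGC, and the interferon-stimulated response element (ISRE) as a pair of GAAA separated by any 2 bases, each on both strands. The CHR letters were in the windows of 16.4% of compared genes with a promoter, 31.5% of the 260 such genes over 1.5-fold, and 60.4% of the 91 genes of the 3 mitotic lists (55 genes). Of the 37 mitotic genes over 1.5-fold with a window, 29 (78.4%) held it. A CCAAT box was in 68.1% of the mitotic windows (62 of 91) and 43.9% of those of compared genes. The E2F letters were in 5.49% of the mitotic windows, near the 4.23% of compared genes, and in 36.4% of the 44 windows of DNA replication genes. A CHR was in 19.2% of all 32851 windows of the table, a CCAAT box in 37.4%, an E2F site in 1.84% and an ISRE in 3.44%. A match shows only that the letters are present. The plot of motif shares gives the counts.

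**Figure D4:**
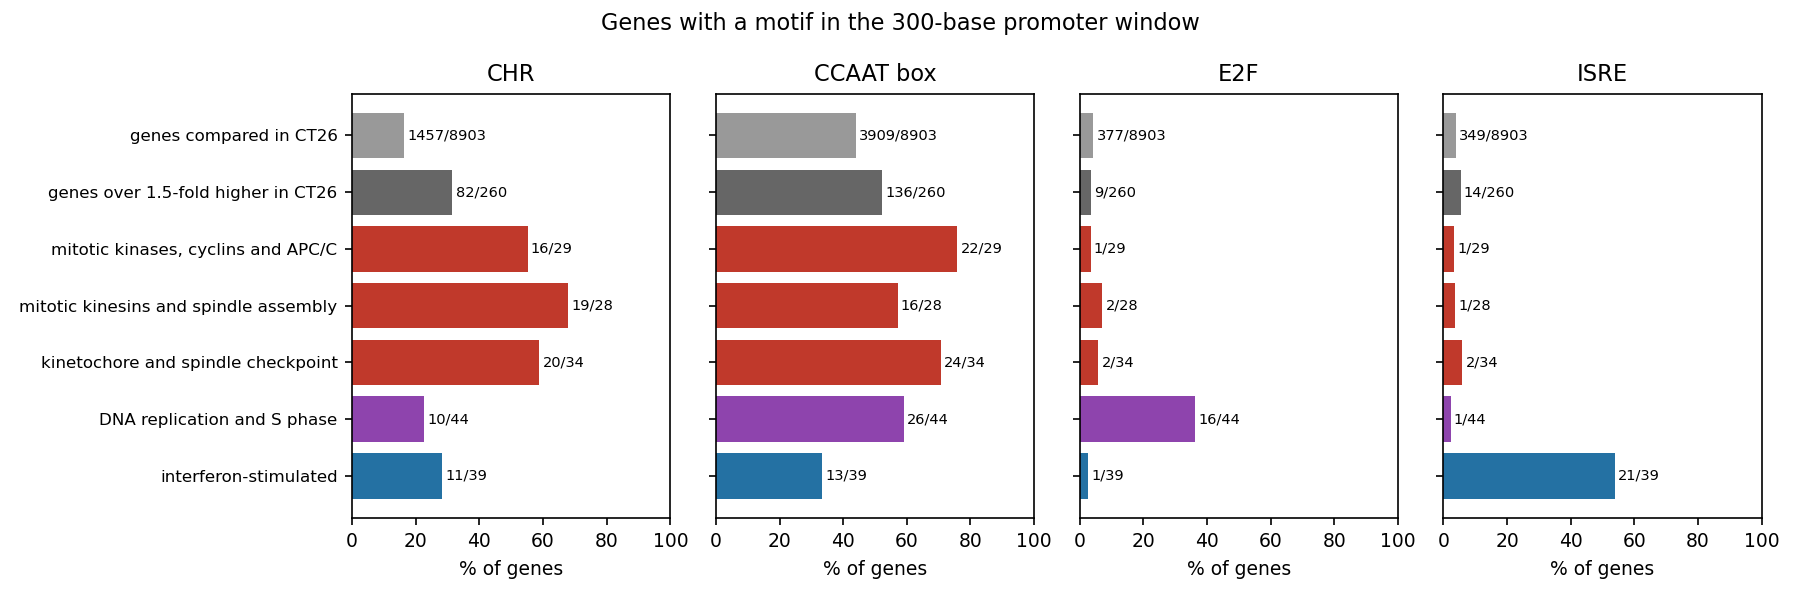
Share of genes (x, percent, with the number of genes holding the motif over the number with a promoter window) whose window of 300 bases holds each of 4 motifs, for compared genes (light grey), genes over 1.5-fold (dark grey), the 3 mitotic lists (red), DNA replication (purple) and interferon-stimulated genes (blue). The CHR is most frequent in the mitotic lists (16 of 29, 19 of 28 and 20 of 34), the E2F letters in DNA replication genes (16 of 44) and the ISRE in interferon-stimulated genes (21 of 39).

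The promoters of 4 mitotic genes are printed to show how the elements sit, chosen because the letters lie before the start, as the 250 bases before the start, 5′ to 3′ along the gene, with CHR and CCAAT letters on either strand in capitals. Positions count back from the base before the start as -1. Kif22 (chr7:127042421-127042670, minus strand) has a CHR that begins at -17, a CCAAT box in reverse at -54 and a second pair at -215 and -233. Kif15 (chr9:122950831-122951080, plus strand) has CHR letters at -19 and -234 and no CCAAT box. Bub1b (chr2:118597961-118598210, plus strand) has a CHR at -188 and a reversed CCAAT box at -113, with a further CHR at 41 in the part not shown. Mki67 (chr7:135716380-135716629, minus strand) has CHR letters at -116 and -98 downstream of CCAAT boxes at -188, -166 and -141.
Kif22: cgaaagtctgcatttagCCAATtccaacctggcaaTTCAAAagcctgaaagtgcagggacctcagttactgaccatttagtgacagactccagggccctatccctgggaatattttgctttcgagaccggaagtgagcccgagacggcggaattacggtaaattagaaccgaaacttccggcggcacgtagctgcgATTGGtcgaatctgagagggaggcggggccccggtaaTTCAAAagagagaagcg
Kif15: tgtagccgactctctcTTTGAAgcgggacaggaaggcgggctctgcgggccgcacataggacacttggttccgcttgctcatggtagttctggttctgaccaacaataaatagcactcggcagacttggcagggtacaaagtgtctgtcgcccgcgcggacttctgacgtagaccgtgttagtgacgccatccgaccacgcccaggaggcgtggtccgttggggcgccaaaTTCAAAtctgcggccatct
Bub1b: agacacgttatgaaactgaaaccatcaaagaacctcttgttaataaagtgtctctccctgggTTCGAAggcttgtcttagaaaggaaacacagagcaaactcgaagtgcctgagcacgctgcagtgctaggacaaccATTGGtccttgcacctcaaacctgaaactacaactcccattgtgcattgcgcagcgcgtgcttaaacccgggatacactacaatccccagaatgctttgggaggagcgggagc
Mki67: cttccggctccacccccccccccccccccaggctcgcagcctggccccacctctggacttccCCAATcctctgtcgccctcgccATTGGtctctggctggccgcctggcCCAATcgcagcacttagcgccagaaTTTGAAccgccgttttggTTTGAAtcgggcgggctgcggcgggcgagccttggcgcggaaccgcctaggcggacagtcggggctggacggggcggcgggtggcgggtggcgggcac

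In other promoters of the lists the CHR lay after the start, at 8 in both Cdc25b and Ttk, at 17 in Cenpa and at 4 in Fbxo5, each with a CCAAT box upstream. That of Cdc25b began at -28 and those of Cenpa at -109 and -86. The promoter of Aurka holds the same elements, with CCAAT boxes at -51 and -19 and a CHR at 33, while its RNA is the target of the hairpin.

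Chromosome structure and replication stood higher too, by smaller amounts. The condensin, cohesin and chromatin compaction list had a median of 0.34 (17 of 21 higher), with 1 gene over 1.5-fold, Ncapd2, a subunit of condensin I, at 3353 and 4873 fragments (0.66, 0.59 to 0.72). Rad21, the cleavable subunit of cohesin, had 12081 and 16096 fragments (0.53, 0.50 to 0.57), and Smc4, the condensin ATPase, 4821 and 5614 (0.34, 0.28 to 0.39). The 54 measured genes of DNA replication and S phase had a median of 0.17, with 47 higher and none past either threshold. Rrm1, the large subunit of ribonucleotide reductase, had 11084 and 12134 fragments (0.25), whereas Pcna, the sliding clamp, had 6613 and 6212 (0.03, -0.02 to 0.08). Nucleotide synthesis had a median of 0.13 with 21 of 24 higher, with the most fragments in Atic at 0.11 and Ctps at 0.05. Centrosome and centriole genes, the structures on which Aurora-A works, had a median of 0.14 with 21 of 27 higher and none past a threshold, as in Pcnt (0.26, 0.18 to 0.34) and Cdk5rap2 (0.24, 0.16 to 0.32). Tubulins and microtubule-associated proteins had 0.07, with Tubb5 at 0.16 and Map1b at 0.06.

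Of the DNA damage and recombination genes 30 of 36 were higher (median 0.13) and 4 were over 1.5-fold, against 3.64% of all compared genes. Fancd2, the ubiquitinated core of the Fanconi pathway, had 399 and 644 fragments (0.81, 0.63 to 0.99), Fancb had 241 and 357 (0.68, 0.44 to 0.93), and Rad51ap1, a homologous recombination factor, had 501 and 727 (0.65, 0.49 to 0.82). Xrcc3 was also over 1.5-fold with 31 and 45 fragments, and its interval of -0.04 to 1.36 includes no change, while in FPKM it stood at 0.14. Fancb was not past the threshold in FPKM with a pseudocount of 1. Lmnb1, which encodes lamin B1 and was the 1 chromatin list member over 1.5-fold, had 1902 and 2881 fragments (0.72, 0.63 to 0.80), beside Cbx5 at -0.03 and Lmna at 0.08. The chromatin modifier list as a whole was centred at -0.01 over 51 genes.

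Targets of p53, inhibitors of cyclin-dependent kinases and regulators of apoptosis had list medians near the control, with intervals that include 0. The p53 and inhibitor list had a median of -0.09 (95% interval -0.195 to 0.0131) with 12 of 35 higher, none over 1.5-fold and 1 under 0.6-fold. The counting interval lay below no change for 18 of the 35, against 21.0% of all compared genes. It lay above no change for 8, against 20.8%. Cdkn1a, which encodes p21, was slightly lower with 15510 and 12487 fragments (-0.20, -0.23 to -0.16), and Plk2, another p53 target, had 43481 and 40441 (0.01). Cdkn1c, the gene under 0.6-fold, had 45 and 24 fragments (-0.77), but 29.7% of its transcript lies under a gene of the other strand and the deposited FPKM values were 0.792 and 0.791, so its call depends on the unit. Apoptosis regulators had a median of -0.07 (95% interval -0.219 to 0.0239) with 11 of 26 higher, and the highest of them in FPKM, Mcl1, an anti-apoptotic BCL2 relative, had 10560 and 7886 fragments (-0.30, -0.35 to -0.26).

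Interferon-stimulated genes were also on the higher side. These genes answer type I and type II interferon through the JAK-STAT pathway, and encode sensors, antiviral enzymes and GTPases. Of 55 measured, 52 were higher, against 48.3% of all compared genes, and the median was 0.31 (95% interval 0.22 to 0.40). Over 1.5-fold lay 7, against 3.64% of all compared genes, and none was under 0.6-fold, against 3.31%. Summed over the list, the level was 5425 FPKM in shGFP and 6358 FPKM in shmaurka-1. Of the 7, 4 were GTPases. Iigp1 stood at 1.45, Gbp6 had 99 and 181 fragments (0.98, 0.63 to 1.36), and Gbp3 had 1598 and 2254 (0.61, 0.52 to 0.71). Gbp6 is uncertain because 91.5% of its transcript matches Gbp10. Uba7, the activating enzyme of ISG15 conjugation, had 63 and 135 fragments (1.21, 0.78 to 1.67), in a locus that holds 10 genes. The genes with the most fragments lay nearer to the control, with Ly6e at 23737 and 22974 fragments (0.07, 0.04 to 0.10) and Ifi203 at 12576 and 13601 (0.23, 0.20 to 0.27).

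ISRE letters were present in 21 of the 39 windows of this list (53.8%), against 3.92% of compared genes with a window. Gbp3 (chr3:142559794-142560043, plus strand) is shown because it was the best measured of the genes over 1.5-fold with an entry, and it holds a pair of overlapping matches in reverse that begin at -45 and -39, in capitals. A second Gbp3 window of the table holds none.
Gbp3: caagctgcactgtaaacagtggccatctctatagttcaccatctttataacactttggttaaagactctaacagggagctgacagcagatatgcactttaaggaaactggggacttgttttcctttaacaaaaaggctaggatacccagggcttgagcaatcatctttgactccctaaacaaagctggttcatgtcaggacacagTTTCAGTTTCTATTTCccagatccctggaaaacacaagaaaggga

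Antigen presentation stood near the control. The MHC class I list was evenly split, with 10 of 20 genes higher, a median of -0.003 and none past a threshold, and the 2 with the most fragments, the light chain gene B2m at 25393 and 19772 fragments (-0.24, -0.27 to -0.22) and the peptide-loading chaperone gene Calr at 28682 and 25485 (-0.05), lay below the control. NF-kB subunits and targets had a median of -0.02, with Lcn2, C3 and Saa3, an acute-phase amyloid gene with 57 and 82 fragments (0.63, 0.14 to 1.16), as the 3 members of 28 over 1.5-fold. Over all compared genes that share was 3.64%. Ptgs2, which encodes cyclooxygenase 2 and held the most fragments of that list, had 90312 and 79602 fragments (-0.06), and Tnfaip2 stood at -0.07.

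Members of the chemokine and cytokine list, which does not hold Clcf1, went both ways. Of 25 measured, 12 were higher. Over 1.5-fold lay 3 and under 0.6-fold 4, against 3.64% and 3.31% of all compared genes. Csf2, which encodes GM-CSF, had 339 fragments in shGFP and 172 in shmaurka-1 (-0.86, -1.13 to -0.59). Il11, a cytokine of the interleukin 6 family as is Clcf1, had 503 and 269 (-0.78, -1.004 to -0.57). Tnfsf9, the ligand of 4-1BB, had 130 and 71 (-0.75, -1.19 to -0.33), but stood at -0.70 in FPKM, not past the threshold. Ccl9 had 45 and 23 (-0.83, -1.64 to -0.10), and was not past it in FPKM with a pseudocount of 1. On the other side Cxcl5, a neutrophil chemokine, had 14 and 26 fragments (0.96, 0.02 to 2.06), while Ccl2 with 9 and 16 and Tnfsf10 with 8 and 14 had intervals that include no change. The 2 cytokine genes with the most fragments were higher by less, Csf1 at 47353 and 52637 fragments (0.27, 0.25 to 0.29) and the matricellular cytokine gene Spp1 at 33495 and 40506 (0.39, 0.37 to 0.41).

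Immune ligands and receptors of tumour cells had a median of -0.16 with 14 of 22 lower, and Havcr2 was the 1 gene past a threshold. Lgals1, which encodes galectin 1, reached 2563 FPKM in shGFP and 2160 FPKM in shmaurka-1 (-0.30, -0.32 to -0.28), and Cd44, the hyaluronan receptor gene, had 19039 and 15726 fragments (-0.16). Cd274, which encodes PD-L1 and was named after its value was seen, had 446 and 545 fragments (0.41).

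In the secretory pathway the unfolded protein response list, made of chaperones and sensors of the endoplasmic reticulum, had a median of 0.21 (95% interval 0.14 to 0.26) with 22 of 25 genes higher and none past a threshold. The chaperone BiP, encoded by Hspa5, had 70926 and 78519 fragments (0.26, 0.25 to 0.28), and Hsp90b1, which encodes GRP94, had 27056 and 33708 (0.43, 0.41 to 0.46). The integrated stress response and amino acid supply list had 0.13 with 28 of 39 higher, although the 2 genes with the most fragments stood at -0.08 for Aars and 0.02 for Ppp1r15a. Heat shock proteins and chaperones of the cytosol and mitochondria had -0.06 with 12 of 31 higher, as in Hsp90ab1 at 42898 and 35233 fragments (-0.17). Its 1 gene over 1.5-fold, Hspa12a, rested on 17 and 26 fragments with an interval of -0.21 to 1.70. Genes of the NRF2 and antioxidant list had -0.04, with Txnrd2, mitochondrial thioredoxin reductase, over 1.5-fold at 145 and 233 fragments (0.80, 0.50 to 1.11) but not in FPKM (0.50), in a locus of 6 genes, and with the ferritin gene Ftl1 and the autophagy receptor gene Sqstm1 near the control at -0.06 and -0.05.

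Lysosome and autophagy genes lay on the lower side together. The median was -0.18 (95% interval -0.29 to -0.10), 31 of 35 were lower and none passed a threshold. Lamp1, a lysosomal membrane protein gene, had 20562 and 17789 fragments (-0.09, -0.12 to -0.06), and Ctsl, a lysosomal protease gene placed in the protease list, had 65266 and 52600 (-0.19, -0.21 to -0.18). Nuclear genes of the respiratory chain had a median of -0.13 (95% interval -0.17 to -0.08) with 39 of 45 lower. Atp5a1, the alpha subunit of ATP synthase, had 23852 and 19068 fragments (-0.21, -0.23 to -0.18), while Atp5b, the beta subunit, had 53928 and 49369 (-0.01). Uqcrc1 was over 1.5-fold at 172 and 241 fragments (0.60, 0.32 to 0.90). The 13 genes of the mitochondrial genome had -0.04, and mt-Co1, the most abundant at 7749 FPKM in the control, stood at -0.05. With deposited FPKM in place of counts (pseudocount 0.1) the median of the nuclear respiratory genes was -0.0639, and Uqcrc1 was not past the threshold.

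Carbon and lipid metabolism was close to the control. Glycolysis and hypoxia genes had a median of -0.07 with 13 of 34 higher, and apart from the uncertain Gapdh none passed a threshold. Pkm, pyruvate kinase, had 41155 and 37403 fragments (-0.02), and Ndrg1 had 51940 and 40530 (-0.24). Cholesterol synthesis had -0.04 with the regulator gene Srebf2 at 0.01. Fatty acid and lipid metabolism had -0.04, with Scd1, the stearoyl-CoA desaturase gene, at 12973 and 10378 fragments (-0.20), Plin2, a lipid droplet coat gene, at 0.15, and Ppargc1a, the coactivator PGC-1alpha, under 0.6-fold at 666 and 351 fragments (-0.80, -0.997 to -0.62), though not in FPKM with a pseudocount of 1.

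Most matrix and mesenchymal genes were slightly lower. Collagens and basement membrane genes had a median of -0.21 (95% interval -0.36 to -0.10) with 29 of 38 lower and 2 under 0.6-fold, Col11a1 at 113 and 58 fragments (-0.84, -1.33 to -0.38) and Col15a1 at 41 and 21 (-0.82, -1.68 to -0.06). The genes with the most fragments went both ways, with the laminin gene Lama5 at -0.24 and the collagen chaperone gene Serpinh1 at 0.15, and the summed level of the list was higher in the knockdown library, at 917 FPKM in shGFP and 961 FPKM in shmaurka-1. Mesenchymal identity genes had -0.18 with 23 of 30 lower. Fn1, which encodes fibronectin, had 97812 and 83127 fragments (-0.12, -0.13 to -0.10) and the receptor tyrosine kinase gene Axl 49172 and 39574 (-0.20). The 3 genes under 0.6-fold rested on few fragments, with 40 and 18 fragments for Acta2, 18 and 8 for Fap and 15 and 4 for Tagln, whose transcript is covered to 53.1% by a gene of the other strand. In FPKM with a pseudocount of 1 the median was -0.0908 for collagens and -0.109 for mesenchymal genes, and Acta2, Fap, Tagln, Col11a1 and Col15a1 were not past the threshold.

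Matrix proteases and inhibitors had a median of -0.19 with 16 of 29 lower. The protease receptor gene Plaur had 14501 and 10069 fragments (-0.41, -0.45 to -0.37), Serpine2 had 40 and 16 (-1.16), Adam8, a membrane protease gene, had 1046 and 1491 (0.63, 0.51 to 0.74), and Plat, tissue plasminogen activator, had 122 and 192 (0.77, 0.44 to 1.11). Serpine2 and Plat were not past a threshold in FPKM with a pseudocount of 1. Genes of the actin cytoskeleton and targets of serum response factor had -0.13 with 32 of 41 lower, among them Actb at 89293 and 67314 fragments (-0.29, -0.30 to -0.28), but the filamin gene Flna stood at 0.10 and the median was -0.0250 in FPKM with a pseudocount of 0.1. Integrins and adhesion genes had -0.07. Cadm4 (96 and 46 fragments) was under 0.6-fold, though not in FPKM with a pseudocount of 1. Pcdh7 had 211 and 97 fragments (-0.997), but it sits in a locus of 19 genes and its deposited FPKM values were 1.60 and 1.26 (-0.34), so it is not past the threshold in FPKM. Mcam, Itgb8 and L1cam were over 1.5-fold on 9 to 20 fragments a library, with intervals that include no change.

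Signalling lists showed single large members within small shifts. TGF-beta and BMP genes had a median of -0.17 (95% interval -0.29 to -0.05) with 29 of 37 lower. Id2, an inhibitor of basic helix-loop-helix factors, had 342 and 166 fragments (-0.92, -1.20 to -0.65), and Klf10, an early TGF-beta response gene, had 1374 and 682 (-0.89, -1.03 to -0.76). AP-1 and immediate early genes had -0.16 with 19 of 26 lower and none past a threshold. Egr1, with the most fragments, had 39097 and 23034 fragments (-0.65, -0.67 to -0.62), while Fosl1, which encodes FRA-1, had 18141 and 19257 (0.20, 0.17 to 0.23). MAPK signalling and feedback had -0.10 with 31 of 44 lower, and Btc, the EGF receptor ligand betacellulin, had 107 and 37 fragments (-1.39, -1.99 to -0.86), whereas the related ligand gene Ereg had 18108 and 15134 (-0.14).

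Wnt and beta-catenin genes were centred near 0 (-0.02 over 27 genes), but Wnt10a, a secreted ligand, had 2108 and 934 fragments (-1.06, -1.17 to -0.94), while the related ligand gene Wnt10b had 14 and 6, with an interval of -2.77 to 0.37 that includes no change. Ccnd1, cyclin D1, had 19643 and 15344 (-0.24), and a gene of the other strand covers 59.9% of a Ccnd1 transcript. Notch and Hedgehog genes had -0.03, with 2 genes under 0.6-fold in counts. Gli1, a Hedgehog transcription factor, had 28 and 14 fragments with an interval of -1.92 to 0.09, which includes no change. Dll1, a Notch ligand, had 71 and 37 (-0.81), but Fam120b covers 30.2% of its transcript on the other strand and it stood at -0.37 in FPKM, not past the threshold. The YAP/TEAD list had 0.03 over 28 genes and none past a threshold. In the circadian clock list (-0.05 over 18 genes) the paired transcriptional repressors Bhlhe40, with 6607 and 3288 fragments (-0.89, -0.95 to -0.83), and Bhlhe41, with 873 and 468 (-0.78, -0.95 to -0.62), were both under 0.6-fold. The nuclear receptor gene Nr1d1 had 10254 and 6855 (-0.46, -0.51 to -0.42).

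Protein synthesis and turnover were near the control. Cytosolic ribosomal protein genes had a median of 0.06 with 33 of 46 higher, as in Rpl4 at 0.13 and Rpsa at 0.19, and summed to 38956 FPKM in shGFP and 41112 FPKM in shmaurka-1. The MYC network and ribosome biogenesis list had 0.08, with nucleolin (Ncl) at 0.12 and ornithine decarboxylase (Odc1) at -0.24. Splicing factors had 0.02 and the proteasome -0.04, and none of the genes of these 4 lists passed a threshold. Histone genes (13 measured, median -0.11) were led in abundance by the replacement histone H3f3b at 20115 and 15121 fragments (-0.29), and Hist2h2aa1, at 18 and 6, has transcripts of the same sequence elsewhere in the genome. Imprinted growth genes had -0.33 with 8 of 11 lower, among them Peg3 at 80 and 41 fragments (-0.83, -1.43 to -0.29), while Gnas stood at 0.07 and the summed level was 389 FPKM in shGFP and 402 FPKM in shmaurka-1. Primary cilium genes had 0.01, with Bbs1 under 0.6-fold at 81 and 38 fragments (-0.96, -1.57 to -0.40), though not in FPKM with a pseudocount of 1.

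The deposited labels call the CT26 cell type a fibroblast, so markers were checked. Of 15 fibroblast and mesenchymal markers 14 were measured, and all 15 summed to 1109 FPKM in shGFP and 1103 FPKM in shmaurka-1. Of 14 colon epithelial markers 4 were measured, Krt18, Krt20, Krt8 and Krt19, and all 14 summed to 43.1 and 42.8 FPKM. The defining epithelial genes Epcam and Cdh1 had at most 2 fragments in a library, and Vil1, Muc2 and Cdx1 had 0 in both, which allows up to 3 fragments in each. Krt20, a keratin of differentiated colonocytes, had 434 and 205 fragments (-0.96, -1.21 to -0.72), and Jup, which encodes the junction protein plakoglobin, had 995 and 493 (-0.89, -1.05 to -0.74), though at -0.72 in FPKM it is not past the threshold. Krt19, the 1 gene of the epithelial identity list over 1.5-fold, had 6 and 13 fragments (1.12), with an interval of -0.26 to 2.92 that includes no change. In the 9 measured genes of that list the median was -0.36 with an interval of -0.89 to 0.48. Krt18 (0.09) and Tjp1 (-0.07) were close to the control.

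Other cell types were scarce in both libraries. Of 18 leukocyte markers 5 were measured, and all 18 summed to 30.2 FPKM in shGFP and 22.5 FPKM in shmaurka-1. Cd14, which carried most of that sum, had 623 and 389 fragments (-0.56, -0.75 to -0.38). The pan-leukocyte gene Ptprc had 2 fragments in each library, and Cd3e, Cd4, Cd8a, Nkg7 and Cd79a had 0. Endothelial markers summed to 1.51 and 1.25 FPKM, muscle and erythroid markers to 3.55 and 4.09 FPKM, and neural markers to 1.41 and 1.23 FPKM. The part of these RNAs in any result was not tested. The most abundant single RNAs per length, beside mt-Co1, were mt-Nd1 at 3360 FPKM, Rplp1 at 3222, Eef1a1 at 3127 and mt-Cytb at 2585 in the control, with log2 fold changes between -0.11 and 0.11.

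The 825 genes measured in CT26 alone were less abundant, with a median of 23.9 counts, and 44.0% had predicted or clone names. Of them 92 (11.2%) were over 1.5-fold and 112 (13.6%) under 0.6-fold, and their median was -0.06. With an interval that also excluded no change, 4.97% and 7.88% passed, against 2.05% and 1.69% of the genes also measured in MC38. Without the interval, 3.12% and 2.6% of the latter passed, and since those genes are more abundant the shares are given by abundance. At a mean of 10 to 50 counts 13.6% of 567 CT26-only genes lay over 1.5-fold and 16.2% under 0.6-fold, against 11.7% and 13.6% of 1527 other genes. At 50 to 200 counts the shares were 8.03% and 9.49% of 137 CT26-only genes and 4.16% and 3.63% of 1708 others. At 200 to 1000 counts the shares were 3.16% and 7.37% of 95 CT26-only genes, against 1.75% and 0.786% of 3437 others. At 1000 counts or more, 1 of 26 CT26-only genes was over 1.5-fold and 0 were under 0.6-fold, against 1.20% and 0.247% of 5256 others.

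Among the CT26-only genes on the higher side, Slit3 (646 and 1210 fragments) and Exph5, an effector of Rab27 in exosome and granule transport, with 173 and 353 (1.14, 0.88 to 1.42), were measured best. In MC38 Slit3 had 13 and 5 fragments and Exph5 17 and 4. Bpifc had 49 and 109 fragments (1.26, 0.77 to 1.79), and Dcdc2a had 3 and 17, a log2 ratio of 2.30 with an interval of 0.83 to 5.03. On the lower side Klk10, a kallikrein-related protease gene in a locus of 10 genes, had 626 and 290 fragments (-0.99, -1.20 to -0.79). Fat2, Akr1c18, Prl and Ccr1, given above, are CT26-only as well, and so is Cgref1 with 59 and 18 (-1.55, -2.44 to -0.81), whose transcript Khk overlaps on the other strand along 47.4%. Krt20 and Csf2 from the lists also belong here, with at most 2 fragments in either MC38 library.

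Several abundant CT26-only genes differed little, and they are given here by their level in the control, chosen after the values were seen. Rpl39l, a ribosomal protein paralogue, stood at 238 FPKM and a log2 fold change of 0.04 (2269 and 2147 fragments). Baiap2l1 stood at 210 FPKM (13130 and 13935 fragments, 0.20), Pdlim1 at 151 FPKM (-0.07), the interferon-inducible gene Ifi202b at 145 FPKM (0.10) and Esm1 at 110 FPKM (0.07). Lower levels were seen for Lgals7, a galectin gene, at 1192 and 740 fragments (-0.57, -0.70 to -0.44), for Ptpn22, a phosphatase of immune receptor signalling, at 1461 and 811 (-0.73, -0.86 to -0.61), and for the costimulatory ligand gene Cd80 at 2155 and 1686 (-0.24, -0.33 to -0.14). The last 3 each held at most 5 fragments in either MC38 library.

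Set beside the same contrast in MC38, the lists fell into different patterns, and whether the lines differ was not tested because each line has 1 library a condition. Aurka was lower in both, with 2300 and 413 fragments in MC38 (-2.44, -2.60 to -2.30). Of the 11928 genes measured in both lines 2.5% were over 1.5-fold and 1.02% under 0.6-fold in MC38, and 50.1% were higher. The interferon-stimulated list had like medians, 0.31 in CT26 and 0.33 in MC38, with 52 of 55 genes higher in each line. The mitotic lists did not, since the 111 genes had a median of -0.08 in MC38 with 39 higher and 0 over 1.5-fold. Cdc25b stood at 0.08 there, Bub1b at 0.11, Kif22 at -0.15 and Mki67 at -0.06. Lysosome and autophagy genes had -0.02 in MC38, respiratory chain genes 0.003 and collagens -0.004, where CT26 had -0.18, -0.13 and -0.21. The plot of list medians in both lines gives the lists at either end.

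**Figure D5:**
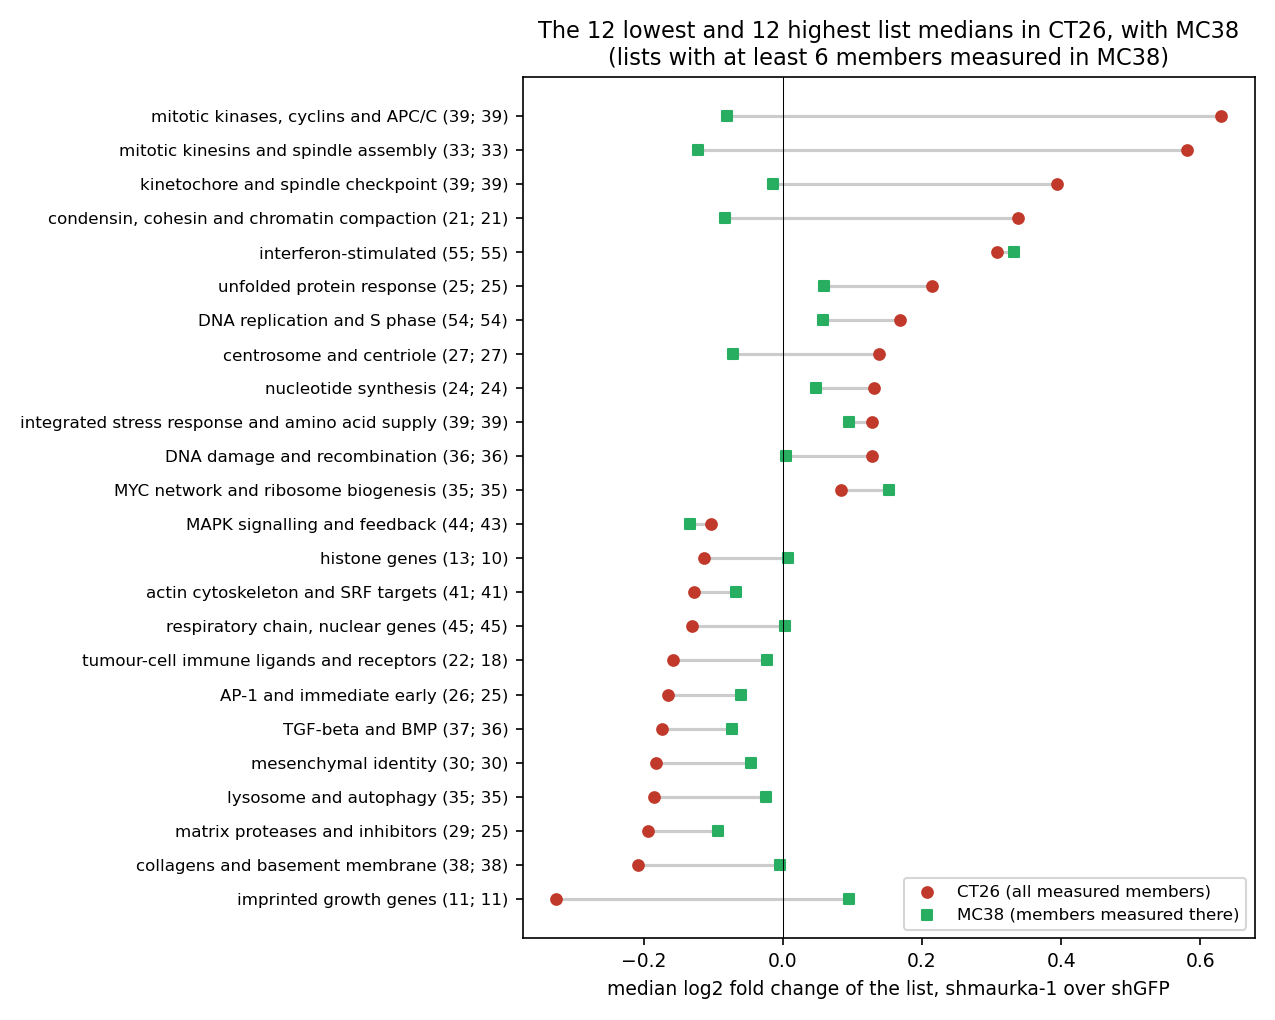
Median log2 fold change, shmaurka-1 over shGFP (x), of the 12 lowest and 12 highest lists in CT26 (red circles) with the median of the same lists in MC38 (green squares), for lists with at least 6 members measured in MC38 (numbers measured in CT26 and MC38 in parentheses). The mitotic lists are far apart in the 2 lines (0.63 and -0.08 for kinases and cyclins), while the interferon-stimulated lists nearly coincide (0.31 and 0.33).

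Chromosome by chromosome, the median ran from -0.03 on chromosome 17 (613 genes) to 0.01 on chromosome 19 (419 genes). The median of all genes moved over a like range, from -0.03 to 0.02, with the choice of scaling and unit. The shares past the thresholds differed more between chromosomes, from 1.91% to 5.18% over 1.5-fold and from 1.28% to 5.49% under 0.6-fold.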

How the data were processed

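RNA-seq of 4 libraries was deposited, and the 2 of CT26 cells were compared, with the 2 of MC38 beside them. The libraries were made with a strand-specific kit. Whether the counting used strand is not given in the sources used here, so genes that overlap on either strand are uncertain. Per the submitters' processing notes, reads were trimmed with Trimmomatic 0.36, aligned with HISAT2 and quantified with Cufflinks 2.2.1 and Cuffdiff. The authors deposited an estimated count for each gene and library, scaled between libraries, and FPKM values, which are scaled to transcript length and library size. Those notes name GRCm39, but 99.7% of 20051 genes matched by symbol overlapped their position on GRCm38.p6. Of 26888 genes matched by gene identifier, 8.91% overlapped theirs on GRCm39, so positions are given as GRCm38.

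The deposited estimated counts were whole multiples of 1 value per library for 97.6% and 97.7% of the CT26 values within 0.05, and dividing by it gave fragments, 23752269 and 22207768 in all. Ratios were taken on deposited counts scaled by TMM (edgeR 4.0.16, R 4.3.3) with 1 count added, for genes with a mean of at least 10 counts. The genes behind the TMM factors were changed from all genes to the compared genes after the values were seen. Intervals are exact conditional binomial (scipy 1.17.1, Python 3.11.15). The method was tested on simulated data. With 1 library per condition no p-value is given. Where a library held 0 fragments, the floor was 3. No column of other samples was present.

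Genes are named by rule: Aurka, Aurkb and Il16, the 15 higher and 15 lower genes whose interval stays furthest from no change, the 6 higher and 6 lower CT26-only genes by the same measure, up to 4 members of each list past each threshold with the 2 members of highest mean count, and the 5 genes of highest FPKM. Predicted and clone names were passed over. Some genes the rule names are not reported here. Genes outside the rule were chosen with their values known. The genes, lists and comparisons were chosen with earlier results of these data known. Near-identical copies were sought with blastn 2.17.0, at 95% identity over at least 100 bases and 20% of a transcript. Other scalings (DESeq2 1.42.0, total counts), added counts, filters, units and thresholds were tried.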

Additional observations from a re-analysis of the deposited data

Results flagged for a closer look

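A pair of mitotic lists and 1 gene lay on opposite sides of the control in the 2 lines, and the difference was not tested because each condition has 1 library. The list of mitotic kinases, cyclins and the anaphase-promoting complex had its median at 0.63 (log2 fold change) in CT26, with 38 of 39 genes higher, and -0.0798 in MC38, with 12 of 39 higher. Mitotic kinesins and spindle assembly factors had 0.58 in CT26, with 30 of 33 higher, and -0.12 in MC38, with 8 of 33 higher. Tmem150a stood at -2.39 in CT26 on 61 and 10 fragments and at 1.67 in MC38 on 24 and 77 fragments. It is 1 of 9 genes past opposite thresholds in the 2 lines with intervals that exclude no change in both, 3 of them higher and 6 lower in CT26.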

How the results depend on the processing

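No paired analysis was possible because each condition has 1 library within CT26, and for the same reason no library could be left out in turn. A fit of the knockdown over CT26 and MC38 together, which would estimate the average of the lines, was not run. The counts of genes past a threshold depended on the filter, unit and threshold. Without a filter on low counts (19745 genes) 2585 were higher and 2986 lower, at a mean of 50 counts or more 209 and 122, with FPKM and a pseudocount of 1 there were 227 and 97, and at 2-fold in either direction 108 and 173. Asking the interval to exclude no change left 285 and 266, and to lie wholly past the threshold 91 and 41. With 1/1.5 in place of 0.6 the lower count was 671. Genes with a locus of their own (6102 genes, chosen after seeing the data) gave 216 and 202. Under the other scalings, added counts and units the counts ran from 376 to 522 higher and from 316 to 451 lower, and TMM on all genes, an alternative added after seeing the data, gave 441 and 439. Aurka stood at -2.16 with FPKM and a pseudocount of 1. With FPKM and a pseudocount of 0.1 or 1, medians moved to -0.12 and -0.11 for mesenchymal identity, -0.0250 in both for actin and SRF targets, 0.17 in both for the integrated stress response, -0.0639 and -0.0633 for nuclear respiratory chain genes and 0.0149 and 0.0146 for chromosome 17, and with a pseudocount of 1 to -0.0908 for collagens. With genes of their own locus the integrin list stood at -0.27. The cause was not tested. No direction of a called value reversed. For single genes, one that a filter removed was not counted as lost, and the other thresholds were not used. Of 102 named genes past a threshold, 61 stayed past it under every scaling, added count and unit and 41 did not under at least 1. Among the latter, Cdkn1c, Dll1, Hspa12a, Itgb8, Jup, Mcam, Pcdh7, Peg3, Tagln, Tnfsf10, Tnfsf9, Txnrd2, Uqcrc1, Wnt10b and Xrcc3 were not past it in FPKM with a pseudocount of 0.1. With a pseudocount of 1, Acta2, Bbs1, Cadm4, Ccl2, Ccl9, Cgref1, Col11a1, Col15a1, Dcdc2a, Fancb, Fap, Fat2, Gli1, Hist2h2aa1, Krt19, L1cam, Plat, Ppargc1a, Sema7a, Serpine2 and Spdye4a were not either.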
